A study of Mus musculus with 4 samples.

Results

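The 10 genes described here encode the receptors for interleukin-1 (IL-1) and interferon-γ (IFN-γ) and the proteins that act next to them inside the cell. They are *Il1r1*, *Il1rap*, *Il1r2*, *Il1rn*, *Myd88*, *Irak2*, *Ifngr1*, *Ifngr2*, *Jak1* and *Jak2*. They were taken by symbol, not by their values, from the 31053 genes of the count tables, and each was found once.

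IL-1β binds the receptor chain encoded by *Il1r1*, which then pairs with the accessory chain encoded by *Il1rap* and signals through the adaptor MyD88 and kinases of the IRAK family to NF-κB. The decoy receptor encoded by *Il1r2* binds IL-1 without signaling, and the antagonist encoded by *Il1rn* occupies the receptor without activating it. IFN-γ binds a receptor built of the chains encoded by *Ifngr1* and *Ifngr2*, whose kinases, JAK1 and JAK2, pass the signal on to gene expression. Both cytokines are known for their action on insulin-secreting β-cells in the inflamed islet.

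Islets of adult male C57BL6/J mice (C57BL/6 in the labels) were pooled and then divided into 4 cultures. These were left without cytokine (untreated) or received human IL-1β, mouse IFN-γ or both (IL-1β + IFN-γ, the combined library) for 6 h. Each gave 1 library by droplet capture of single cells, where a unique molecular identifier (UMI) marks 1 captured transcript. Since each condition was sequenced once, differences between conditions were not tested. Every interval below is a 95% interval that covers the counting of molecules or cells and not the spread between cultures.

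The untreated library was the deepest, with 50731370 UMIs over 3486 barcodes. The IL-1β library held 20056630 UMIs over 2911 barcodes, the IFN-γ library 31209339 over 3694 and the combined library 25716645 over 2480. Kept were barcodes with 200 to 4000 genes and no more than 12% of UMIs from mitochondrial genes, which left 1521 untreated cells, 2018 under IL-1β, 2122 under IFN-γ and 1810 under both. Their median depth was 15454, 7462.5, 9615 and 11123.5 UMIs in this order. The upper gene limit removed 843 cells from the untreated library, 146 from the IL-1β library, 345 from the IFN-γ library and 222 from the combined library, so that it acted mostly on the deepest one. Any pair of libraries had 1 to 4 barcodes in common.

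Cell classes were set from hormone UMIs and marker genes, without any of the 10 genes. β-like cells numbered 1170, 1123, 1256 and 1255 in the order untreated, IL-1β, IFN-γ, combined. There were 96, 345, 310 and 175 α-like cells, 69, 172, 191 and 125 δ-like cells, and 30, 33, 58 and 50 PP-like cells. Non-endocrine classes were small, at 22 to 46 endothelial-like, 31 to 45 macrophage-like, 10 to 20 mesenchymal-like, 10 to 24 ductal-like and 8 to 24 acinar-like cells per library. All 7 β, 6 α and 5 δ markers were detected in their own class in each library, with *Ins2*, *Gcg* and *Sst* the most abundant. *Sertm1* was at 0 in PP-like cells of the IL-1β library, *Pdgfra* in mesenchymal-like cells of the libraries that received IFN-γ, and *Cftr* in ductal-like cells of the combined library. δ-like cells also held *Ppy*, at a median of 1.76% to 2.22% of UMIs. Over the 4 libraries, 124 cells lay within 20% of the *Ppy* limit on either side, against 171 cells in the PP-like class. When the cells were clustered, β-like cells of each library lay mostly in clusters of their own. Among α cells, 320 of 342 in 1 cluster had received IL-1β alone and 195 of 198 in another both cytokines, and δ clusters gave 199 of 222 and 126 of 128 in the same way. Untreated and IFN-γ cells shared a cluster in either class. In the clusters that were mostly of 1 library, cell identity and library cannot be told apart. Of the PP-like cells, 18 of 30 untreated, 15 of 33 under IL-1β, 44 of 58 under IFN-γ and 39 of 50 under both were PP when clustered, so values of this class rest on an uncertain set of cells.

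The level of a gene is its summed UMIs in a class of 1 library, scaled to counts per 1000000 UMIs of that class (CPM). Hormone transcripts took 42.3% of UMIs in untreated β-like cells, 22.4% under IL-1β, 28.9% under IFN-γ and 33.7% under both. With fewer hormone UMIs in the total, the CPM of other genes is higher. The median ratio of all genes tested to the untreated β-like cells was 1.27 under IL-1β, 1.23 under IFN-γ and 1.003 under both, and 0.940, 0.995 and 0.873 when hormone UMIs were left out of the totals. In α-like cells these medians on all UMIs were 0.991, 1.08 and 0.922, and in δ-like cells 1.04, 0.979 and 0.941. For *Il1r1*, *Myd88*, *Ifngr1*, *Ifngr2* and *Jak2*, ratios of β-like cells are therefore also given relative to the median, and for *Jak1* without hormone UMIs. Other ratios of β-like cells to untreated are on all UMIs.

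A ratio of at least 1.5, or at most its inverse, was counted as higher or lower among genes with at least 30 UMIs over the libraries compared, which is a size and not a test. In any setting, a gene under the minimum of UMIs was not counted, whatever its ratio. In β-like cells, 9 of the 10 genes could be counted under IL-1β, and 8 were higher and 0 lower. The exception was *Il1r1*. Of all genes tested in that comparison 35.6% were higher and 12.3% lower, and without hormone UMIs 16.1% and 25.1%, where 7 of the 9 were higher, without *Jak1*. With IFN-γ, 6 of 9 were higher and 0 lower, against 20.3% and 2.61% of all genes, or 7.38% and 7.502% without hormone UMIs, where 4 of the 9 were higher, without *Ifngr1* and *Myd88*. With both cytokines, 9 of 10 were higher and 1, *Il1r1*, was lower, against 20.8% and 22.4% of all genes, or 15.0% and 29.98% without hormone UMIs, where the same 10 were counted. The median log2 ratio of the genes counted was 1.88, 0.64 and 2.23 in these comparisons.

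Fewer of the 10 genes could be counted in the smaller endocrine classes. With IL-1β, 6 of 7 were higher in α-like cells, where 18.1% of all genes tested were higher and 18.9% lower, and 3 were left with at least 100 UMIs. In δ-like cells 4 of 6 were higher under IL-1β, where 21.1% of all genes were higher and 17.4% lower, but 1 was left under a stricter hormone share or with at least 100 UMIs, and 2 after thinning or at a fold of 2. Without Scrublet doublets 3 were left. Thinning and the stricter share leave fewer UMIs, so a gene lost there need not have a smaller ratio. *Jak2* of these δ-like cells, lost after thinning, had a higher ratio there (given below). Endothelial markers, led by *Flt1*, summed to 140 CPM in these δ-like cells, against 18.6 to 22.9 CPM in those of the other libraries. Their part in the count was not tested. IFN-γ alone gave 1 of 5 in α-like cells, *Jak2*, against 16.2% higher and 6.77% lower of all genes (11.9% and 9.90% without hormone UMIs), and 0 of 4 in δ-like cells, against 11.2% in either direction. *Jak2* in α-like cells was no longer counted after thinning, at a fold of 2 or with at least 100 UMIs. With both cytokines, 5 of 6 were higher in α-like cells, against 17.2% higher and 24.9% lower (20.9% and 19.4% relative to the median ratio). Of these, 3 were left after thinning, without *Irak2* and *Myd88*, and 2 with at least 100 UMIs. In δ-like cells 3 of 4 were higher and 1, *Il1r1*, was lower, against 21.6% higher and 26.3% lower. The count of *Il1r1* was lost under a stricter hormone share or with at least 100 UMIs. The median log2 ratios were 1.17, 0.24 and 1.64 in α-like cells and 0.94, 0.08 and 1.51 in δ-like cells.

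**Figure D1:**
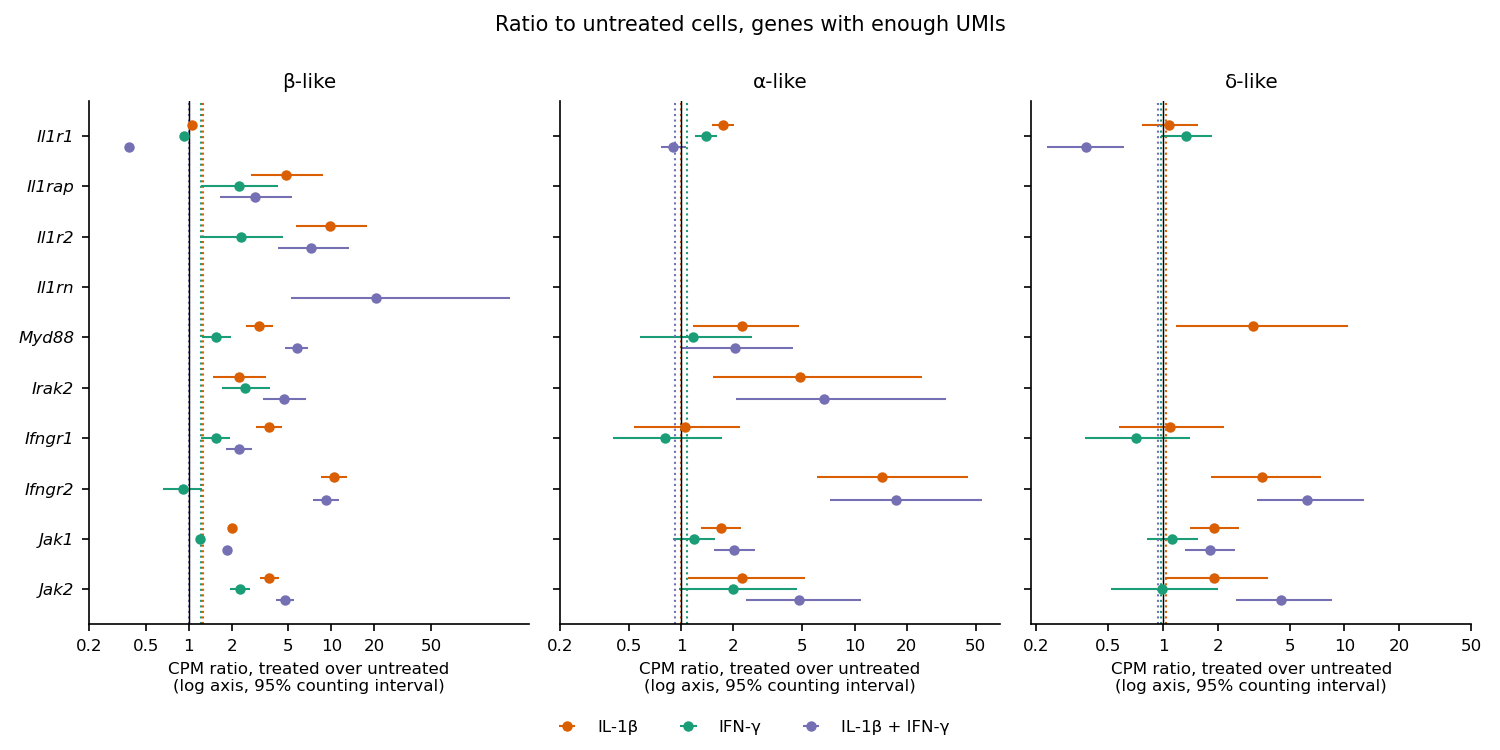
Ratio of the level of each gene in the treated library to that in the untreated library (log axis) for β-like, α-like and δ-like cells, with points for the ratio, bars for its 95% counting interval and dotted lines for the median ratio of all genes tested. *Ifngr2* lies at 10.4 and 9.14 in β-like cells under IL-1β and under both cytokines and at 0.911 under IFN-γ alone, while *Il1r1* lies at 0.382 under both.

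*Il1r1* (chr1:40225080-40317257, forward strand) encodes the signaling receptor for IL-1. Its level in β-like cells was 239.7 CPM (233 to 247) without treatment, 254 CPM (244 to 264) under IL-1β, 223 CPM (216 to 231) under IFN-γ and 91.7 CPM (87.0 to 96.6) under both. The combined library stood below the other libraries, and its interval did not overlap theirs. The ratio to untreated was 0.382 (0.360 to 0.406) under both, 1.06 (1.01 to 1.11) under IL-1β and 0.932 (0.891 to 0.9752) under IFN-γ. Relative to the median of all genes these were 0.381, 0.837 and 0.759, so the direction under IL-1β depended on the scaling (0.787 without hormone UMIs).

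The lower level of the combined library was also found per cell at a matched depth. Among β-like cells thinned to 4000 UMIs each, 57.5% (54.6 to 60.4) of 1135 untreated cells held an *Il1r1* UMI, 56.1% (53.0 to 59.1) of 1049 under IL-1β, 54.8% (52.0 to 57.6) of 1206 under IFN-γ and 28.3% (25.8 to 30.97) of 1224 under both. Before thinning the shares were 88.6%, 74.5%, 79.6% and 57.1%, at a median of 17220.5, 8327, 11101 and 12209 UMIs per cell. Macrophage-like cells held an *Il1r1* UMI in 0 of 35 untreated cells, at a median of 9746 UMIs. At this depth a cell without one cannot be said to lack the transcript.

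α-like cells had an *Il1r1* level of 254 CPM (223 to 287) without treatment, 441 CPM (414 to 468) under IL-1β, 353 CPM (329.9 to 377) under IFN-γ and 228 CPM (205 to 253) under both. Here the IL-1β library was the highest, at 1.74-fold (1.51 to 2.003) the untreated level, and the combined library, at 0.900-fold (0.764 to 1.06), overlapped the untreated one. δ-like cells had 91.6 CPM (68.4 to 120.2), 99.2 CPM (79.8 to 122), 123 CPM (105 to 143) and 34.7 CPM (23.0 to 50.1) in the same order. As in β-like cells the combined library was the lowest, at 0.378-fold (0.230 to 0.610), while the other libraries overlapped. In δ-like cells *Il1r1* was no longer counted as lower under a stricter hormone share or with at least 100 UMIs. PP-like cells were at 115 CPM (83.1 to 155), 333 CPM (262 to 418), 176 CPM (142 to 216) and 80.2 CPM (56.7 to 110.1), highest under IL-1β at 2.90-fold (1.97 to 4.33), where 15 of the 33 cells were PP when clustered. In all 4 endocrine classes the level under both cytokines was lower than under IL-1β alone, at 0.361-fold in β-like, 0.518-fold in α-like, 0.349-fold in δ-like and 0.241-fold in PP-like cells.

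Across untreated classes, *Il1r1* was at the head in α-like and β-like cells, whose ratio of 0.945 (0.831 to 1.08) did not differ beyond counting error, while without hormone UMIs it was 1.27 (1.11 to 1.45), with β-like cells the higher. Mesenchymal-like cells followed at 169 CPM (92.3 to 283), an interval that overlapped both, then PP-like and δ-like cells, which overlapped each other. Without hormone UMIs the β-like level was 2.45-fold (1.46 to 4.48) the mesenchymal-like one and 2.44-fold (1.81 to 3.38) the PP-like one. The order of mesenchymal-like and PP-like cells thus depended on the scaling. Ductal-like cells were at 57.2 CPM (20.995 to 125) and endothelial-like cells at 39.4 CPM (17.0 to 77.5), again overlapping. Macrophage-like and acinar-like cells had 0 UMIs of *Il1r1*. The level in β-like cells was 2.62-fold (1.99 to 3.51) that in δ-like cells of the untreated library, or 3.97-fold (3.02 to 5.33) without hormone UMIs, and 1.82-fold to 2.64-fold in the treated libraries. Against α-like cells it was lower in each treated library, at 0.576-fold under IL-1β, 0.633-fold under IFN-γ and 0.401-fold (0.357 to 0.452) under both.

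**Figure D2:**
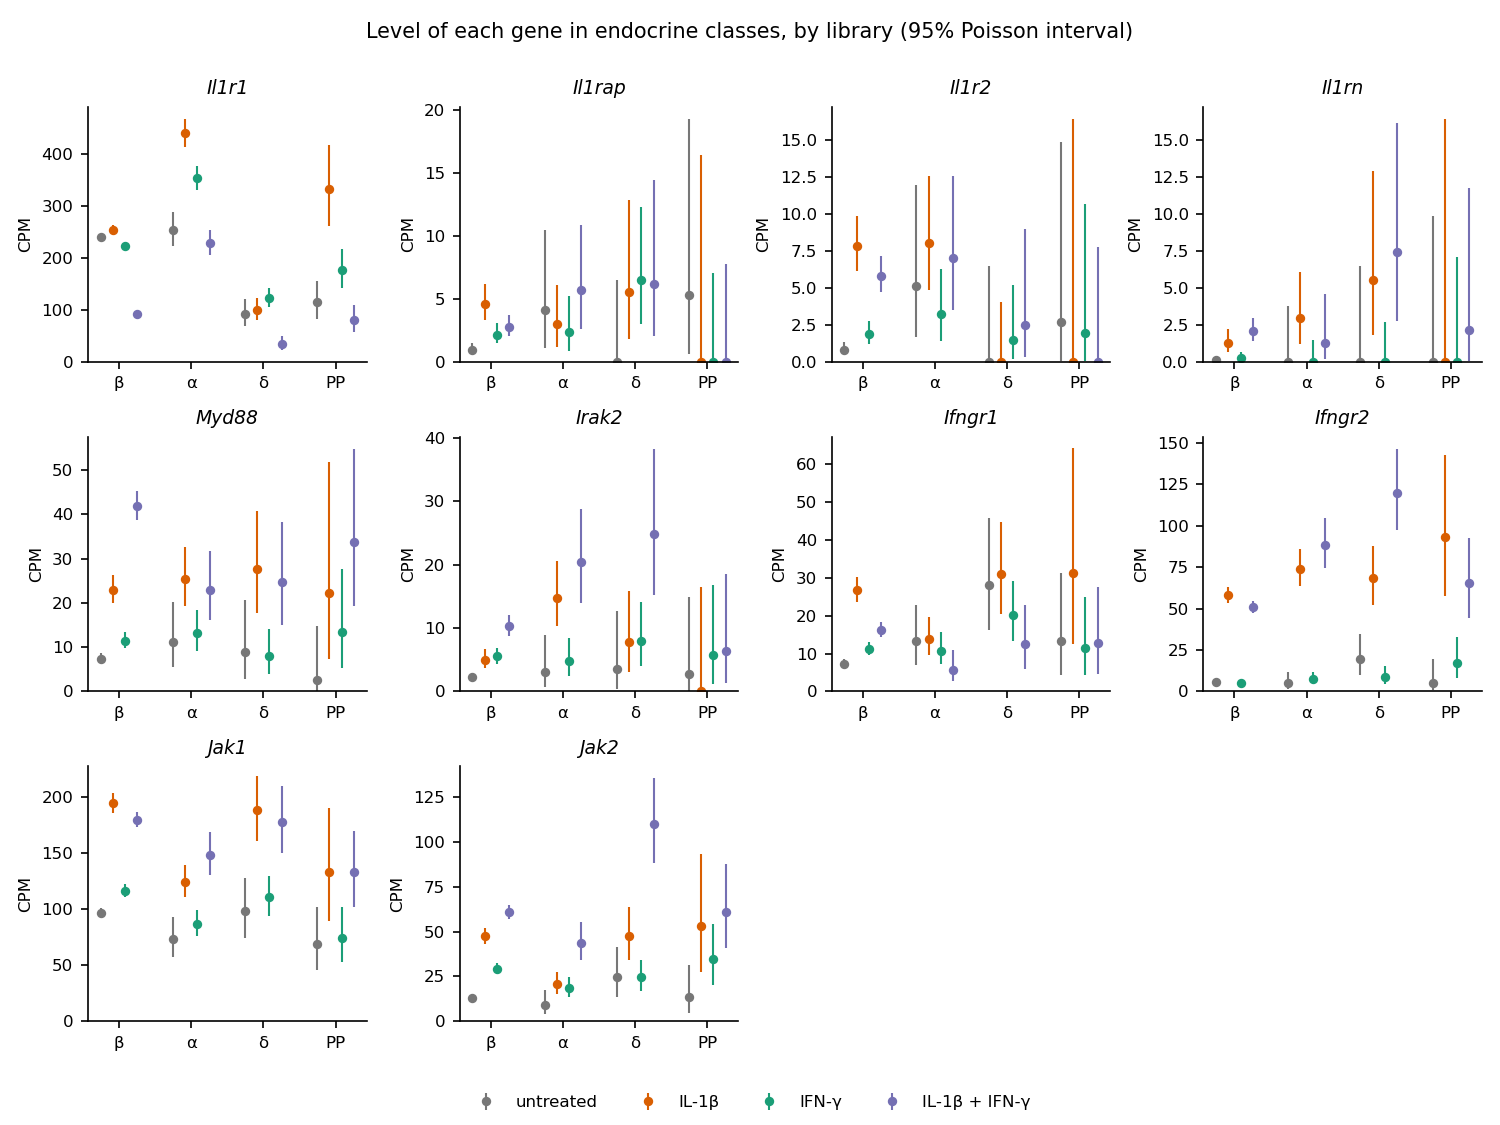
Level of each of the 10 genes (CPM, a separate axis per gene) in β-like, α-like, δ-like and PP-like cells of the 4 libraries, with points for the level and bars for its 95% counting interval. *Il1r1* in β-like cells is at 91.7 CPM in the combined library against 223 to 254 CPM in the others, and *Ifngr2* is high in both libraries that received IL-1β.

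*Il1rap* (chr16:26581704-26730117, forward strand), the accessory chain, was near the floor of these libraries. β-like cells had 19 UMIs of it without treatment (0.956 CPM, 0.576 to 1.49), 44 under IL-1β (4.60 CPM, 3.34 to 6.17), 30 under IFN-γ (2.15 CPM, 1.45 to 3.07) and 43 under both (2.78 CPM, 2.01 to 3.75). The untreated interval overlapped that of the IFN-γ library only, and the ratio under IL-1β was 4.81 (2.75 to 8.72). After thinning, *Il1rap* was no longer counted as higher in β-like cells of any treated library. Thinning also leaves fewer UMIs of it, so this does not show that the ratio fell. α-like cells held 4, 7, 6 and 9 UMIs and δ-like cells 0, 5, 9 and 5, too few for a comparison. A UMI of *Il1rap* was found in 17 of the 1037 untreated β-like cells with *Il1r1*, and at this depth a cell without one cannot be said to lack the transcript.

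*Il1r2* (chr1:40074079-40125231, forward strand), the decoy receptor, was low but higher in both libraries that received IL-1β. β-like cells were at 0.805 CPM (0.460 to 1.31; 16 UMIs), 7.83 CPM (6.16 to 9.82; 75 UMIs), 1.86 CPM (1.22 to 2.73; 26 UMIs) and 5.82 CPM (4.68 to 7.16; 90 UMIs) in the order untreated, IL-1β, IFN-γ, combined. The intervals of the IL-1β and combined libraries lay above the other two, and the ratios to untreated were 9.73 (5.62 to 17.9) and 7.23 (4.22 to 13.2). In α-like cells the level was 5.11 CPM (1.66 to 11.9), 8.03 CPM (4.83 to 12.5), 3.19 CPM (1.38 to 6.29) and 6.999 CPM (3.49 to 12.5), with all intervals overlapping. δ-like cells held 0, 0, 2 and 2 UMIs.

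*Il1rn* (chr2:24336853-24351494, forward strand), which encodes the IL-1 receptor antagonist, was found mostly outside the endocrine classes. Macrophage-like cells were at 29.96 CPM (13.7 to 56.9) without treatment, 143 CPM (96.8 to 205) under IL-1β, 161 CPM (121 to 211) under IFN-γ and 336 CPM (269.9 to 413) under both. Each treated library lay above the untreated one, and the combined library above both single cytokines. The share of macrophage-like cells with a UMI was 17.1%, 40.5%, 40.0% and 61.3%. Ductal-like cells gave 28.6 CPM (5.90 to 83.6), 168 CPM (96.3 to 274), 83.8 CPM (51.2 to 129) and 205 CPM (119 to 328), where the IL-1β and combined libraries lay above the untreated interval and the IFN-γ library overlapped it. The 10 ductal-like cells of the combined library also held β markers at 22351 CPM in sum, *Iapp* the most abundant, against 1137 to 7085 CPM in the other libraries, and only 6 of them were ductal when clustered. The part of other cells in their values was not tested.

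In β-like cells *Il1rn* had 2 UMIs without treatment, 12 under IL-1β, 3 under IFN-γ and 32 under both, or 2.07 CPM (1.42 to 2.92) in the last. The ratio under both cytokines was 20.6 (5.25 to 177), and it was 3.09 after thinning. The 9 macrophage markers summed to 88.6, 51.5, 48.1 and 148.7 CPM in the same β-like cells, with *C1qa* the most abundant and *Adgre1* at 0 in all treated libraries. The combined library was thus highest in both quantities, and the part of these transcripts in the *Il1rn* count of β-like cells was not tested. The 7 UMIs of *Il1rn* in α-like cells of the IL-1β library all came from 1 of 345 cells.

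*Myd88* (chr9:119335934-119341411, reverse strand) encodes the adaptor that joins the IL-1 receptor to the IRAK kinases. Its gene lies within the span of *Slc22a14* on the same strand and overlaps *Acaa1a* on the other, so UMIs of overlapping exons could have been assigned differently. The level in β-like cells was 7.35 CPM (6.20 to 8.64) without treatment, 23.0 CPM (20.04 to 26.2) under IL-1β, 11.5 CPM (9.76 to 13.4) under IFN-γ and 42.0 CPM (38.8 to 45.3) under both. No 2 of these intervals overlapped, and the order was untreated, IFN-γ, IL-1β and both. The ratios to untreated were 3.13 (2.53 to 3.88), 1.56 (1.24 to 1.97) and 5.71 (4.77 to 6.88) for IL-1β, IFN-γ and both, or 2.47, 1.27 and 5.70 relative to the median, so the count of *Myd88* as higher under IFN-γ alone was lost on that scale.

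α-like cells had a *Myd88* level of 11.3 CPM (5.62 to 20.1), 25.3 CPM (19.3 to 32.6), 13.2 CPM (9.07 to 18.5) and 22.9 CPM (16.0 to 31.7). The interval of the untreated cells overlapped that of every treated library, although the libraries that received IL-1β were higher, with ratios of 2.25 (1.17 to 4.75) under IL-1β and 2.04 (1.01 to 4.43) under both. After thinning, *Myd88* was no longer counted as higher in α-like cells under both cytokines. With at least 100 UMIs it was counted in neither of these libraries. δ-like cells were at 8.81 CPM (2.86 to 20.6), 27.6 CPM (17.8 to 40.7), 7.91 CPM (3.95 to 14.1) and 24.8 CPM (15.1 to 38.2), again higher where IL-1β was given, with intervals that reached into the untreated one. Endothelial-like cells had another order, with 125 CPM (87.5 to 173) under IFN-γ alone against 49.2 CPM (23.6 to 90.5) untreated, 29.3 CPM (7.97 to 74.9) under IL-1β and 63.6 CPM (33.8 to 109) under both. Only the IFN-γ and IL-1β intervals did not overlap there.

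*Irak2* (chr6:113638467-113695026, forward strand) encodes a kinase-like protein that acts after MyD88. β-like cells were at 2.21 CPM (1.61 to 2.97), 5.01 CPM (3.70 to 6.65), 5.52 CPM (4.36 to 6.90) and 10.3 CPM (8.75 to 12.01) in the order untreated, IL-1β, IFN-γ, combined. Both single cytokines lay above the untreated level and overlapped each other, and the combined library lay above both. α-like cells showed 3.07 CPM (0.633 to 8.97), 14.8 CPM (10.3 to 20.6), 4.79 CPM (2.47 to 8.37) and 20.4 CPM (13.9 to 28.7), so that here only the libraries that received IL-1β lay above the untreated interval. The untreated level rested on 3 UMIs, and after thinning *Irak2* was no longer counted as higher in either library. Macrophage-like cells had 59.9, 76.5, 53.8 and 63.4 CPM with overlapping intervals, and the untreated β-like level was 0.0370-fold (0.0209 to 0.0680) that of macrophage-like cells, or 0.0637-fold without hormone UMIs.

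The stretches before the start sites of *Myd88* and *Ifngr2* are shown because both genes were counted as higher under IL-1β in β-like, α-like and δ-like cells and their windows held a motif searched for. In δ-like cells *Myd88* was no longer counted under a stricter hormone share, after thinning, without Scrublet doublets or with at least 100 UMIs, and *Ifngr2* under a stricter hormone share or with at least 100 UMIs. They are the 250 bases before the annotated start in RefSeq (GRCm38.p6), from chr9:119340019-119340268 on the reverse strand and from chr16:91546809-91547058 on the forward strand, read 5′ to 3′ along the gene. In *Myd88* capitals mark TTCNNNGAA, a spelling of interferon-γ-activated sites, and overlapping it a pair of GAAA blocks 2 bases apart, a spelling of IRF sites. In *Ifngr2* they mark the κB decamer, a binding sequence of NF-κB, on the opposite strand.
Myd88: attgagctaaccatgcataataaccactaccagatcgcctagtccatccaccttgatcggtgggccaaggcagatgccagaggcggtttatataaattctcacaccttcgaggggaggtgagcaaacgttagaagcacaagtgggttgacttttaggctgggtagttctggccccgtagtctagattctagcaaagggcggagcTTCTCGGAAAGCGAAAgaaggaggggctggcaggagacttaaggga
Ifngr2: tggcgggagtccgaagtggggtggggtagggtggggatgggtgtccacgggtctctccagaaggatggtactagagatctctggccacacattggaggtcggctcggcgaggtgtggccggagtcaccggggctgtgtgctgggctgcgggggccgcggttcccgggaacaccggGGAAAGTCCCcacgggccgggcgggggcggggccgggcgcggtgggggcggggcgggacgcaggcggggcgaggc
The *Myd88* stretch lies within the GENCODE spans of *Myd88*, *Slc22a14* and *Acaa1a*, and that of *Ifngr2* outside annotated genes. Motifs were searched on both strands in the 250 bases before and 50 after each start, in 13 windows of the 10 genes and in 32851 windows of all genes. The κB decamer was found in 0.155% of all windows and among the 10 genes in *Ifngr2* alone, starting 75 bases before its start site. With 2 bases left free it was found in 1.63% of windows (*Ifngr2* and *Il1rn*), and with 3 left free in 5.56% (*Ifngr2*, *Il1r1* and *Il1rn*). TTCNNNGAA was found in 8.30% (*Il1r2* and *Myd88*) and the paired GAAA blocks in 3.44% (*Il1rap* and *Myd88*). A match of letters is a description of the sequence and shows no binding.

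*Ifngr2* (chr16:91547072-91565623, forward strand) encodes the signal-transducing chain of the IFN-γ receptor, and among *Ifngr1*, *Ifngr2*, *Jak1* and *Jak2* it had the largest ratio under IL-1β in β-like cells. β-like cells were at 5.59 CPM (4.60 to 6.73) without treatment, 58.2 CPM (53.4 to 63.2) under IL-1β, 5.09 CPM (3.98 to 6.42) under IFN-γ and 51.04 CPM (47.5 to 54.7) under both. The libraries that received IL-1β lay far above those that did not, and the untreated and IFN-γ libraries overlapped. The ratio to untreated was 10.4 (8.48 to 12.9) under IL-1β, 0.911 (0.667 to 1.24) under IFN-γ and 9.14 (7.48 to 11.2) under both, or 8.23, 0.742 and 9.11 relative to the median. At a matched depth of 4000 UMIs, 1.76% (1.08 to 2.71) of untreated β-like cells held a UMI of it, 20.6% (18.2 to 23.2) under IL-1β, 1.66% under IFN-γ and 18.5% (16.4 to 20.8) under both.

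In the other endocrine classes the libraries that received IL-1β were also the higher ones. α-like cells were at 5.11 CPM (1.66 to 11.9), 73.9 CPM (63.4 to 85.7), 7.58 CPM (4.57 to 11.8) and 88.4 CPM (74.3 to 104), with ratios of 14.5 (6.08 to 45.1) for IL-1β and 17.3 (7.24 to 54.1) for both on only 5 untreated UMIs. δ-like cells were at 19.4 CPM (9.68 to 34.7), 68.4 CPM (52.4 to 87.6), 8.63 CPM (4.46 to 15.1) and 120.1 CPM (97.4 to 146), and their combined library lay above the IL-1β library at 1.76-fold (1.26 to 2.46). PP-like cells were at 5.34 CPM (0.646 to 19.3), 93.3 CPM (57.8 to 143), 17.2 CPM (7.88 to 32.7) and 65.4 CPM (44.4 to 92.9). In each of these classes the libraries that received IL-1β did not overlap those without it.

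Macrophage-like cells were at 107 CPM (72.9 to 150.4), 115 CPM (73.5 to 171), 119.6 CPM (85.4 to 163) and 108 CPM (72.4 to 155), and endothelial-like cells at 143 CPM (95.5 to 205), 132 CPM (78.0 to 208), 72.9 CPM (45.1 to 111) and 68.5 CPM (37.4 to 115). All 4 intervals overlapped within each class, but the ratio to untreated in endothelial-like cells was 0.511 (0.277 to 0.927) under IFN-γ and 0.480 (0.234 to 0.938) under both. The untreated β-like level was 0.0525-fold (0.0351 to 0.0804) that of macrophage-like and 0.0392-fold (0.0258 to 0.0612) that of endothelial-like cells, or 0.0904-fold and 0.0675-fold without hormone UMIs. Mesenchymal-like cells had the highest untreated level, at 229 CPM (138 to 358), which overlapped those of endothelial-like and macrophage-like cells.

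**Figure D3:**
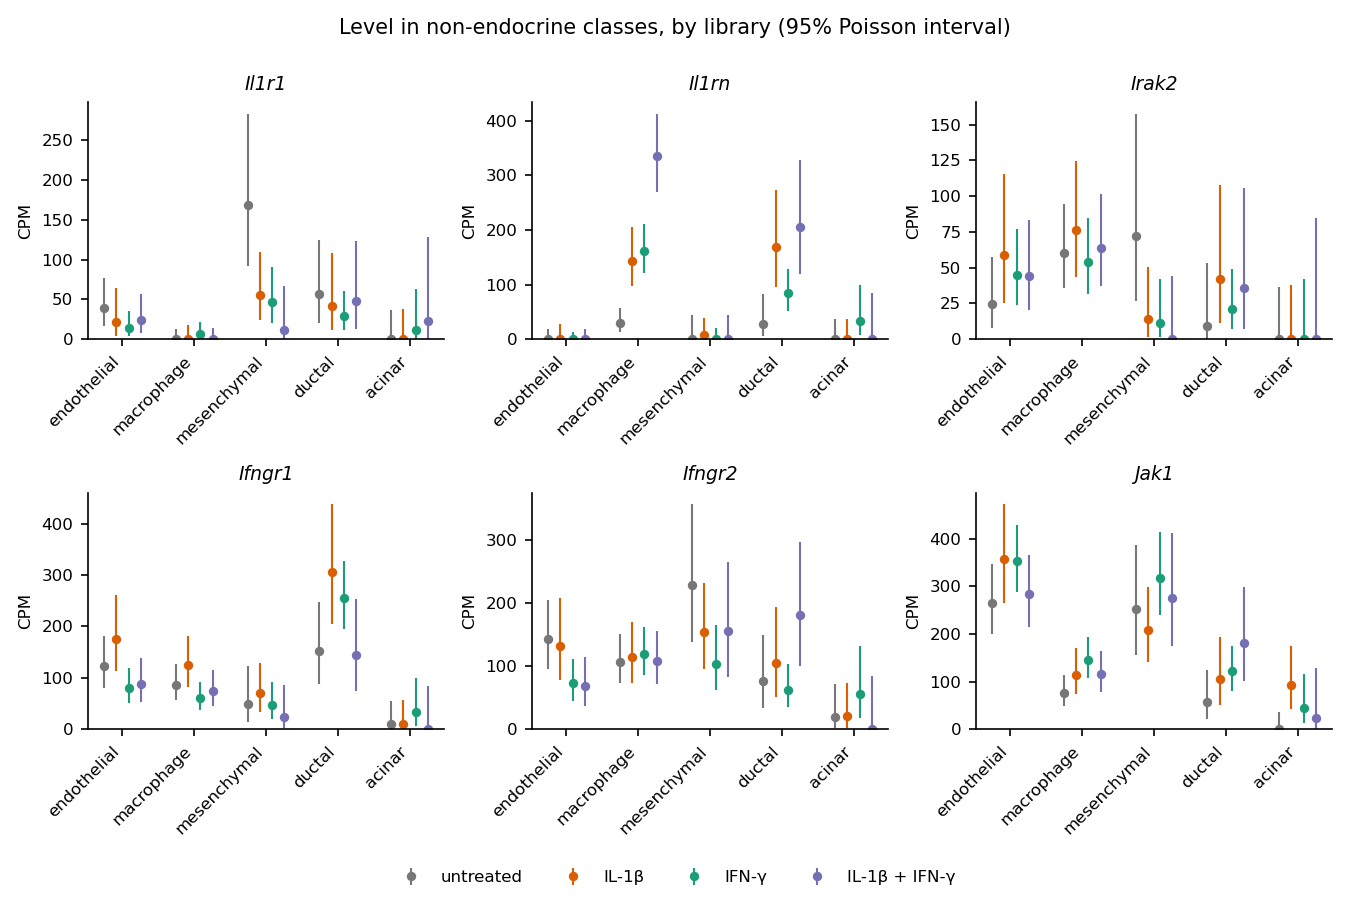
Level (CPM) of *Il1r1*, *Il1rn*, *Irak2*, *Ifngr1*, *Ifngr2* and *Jak1* in the 5 non-endocrine classes of the 4 libraries, with points for the level and bars for its 95% counting interval. *Il1rn* is highest in macrophage-like and ductal-like cells of the combined library, at 336 and 205 CPM, while *Ifngr2* in macrophage-like cells lies between 107 and 119.6 CPM.

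*Ifngr1* (chr10:19591949-19610229, forward strand) encodes the ligand-binding chain of the IFN-γ receptor. In β-like cells its level was 7.25 CPM (6.11 to 8.53) without treatment, 26.6 CPM (23.5 to 30.1) under IL-1β, 11.2 CPM (9.4999 to 13.1) under IFN-γ and 16.2 CPM (14.3 to 18.4) under both. All treated libraries lay above the untreated one, IL-1β the highest, and the combined library was at 0.610-fold (0.510 to 0.729) the IL-1β level. The ratios to untreated were 3.67 (2.98 to 4.54), 1.54 (1.22 to 1.95) and 2.24 (1.82 to 2.77), or 2.90, 1.26 and 2.23 relative to the median, which takes the IFN-γ value below the limit of 1.5.

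α-like and δ-like cells did not have this pattern. α-like cells were at 13.3 CPM (7.08 to 22.7), 13.9 CPM (9.60 to 19.6), 10.8 CPM (7.10 to 15.7) and 5.73 CPM (2.62 to 10.9), and δ-like cells at 28.2 CPM (16.1 to 45.8), 30.9 CPM (20.5 to 44.6), 20.1 CPM (13.4 to 29.1) and 12.4 CPM (5.94 to 22.8). All untreated and treated intervals overlapped in both classes. With both cytokines the level was lower than under IL-1β alone, at 0.411-fold (0.173 to 0.877) in α-like and 0.401-fold (0.174 to 0.851) in δ-like cells. The ratio of δ-like cells under IL-1β to untreated, 1.09, became 0.495 under a stricter hormone limit, and that of α-like cells under IFN-γ, 0.810, became 0.367 after thinning. PP-like cells were at 13.3, 31.1, 11.5 and 12.7 CPM, highest under IL-1β at a ratio of 2.33 (0.637 to 9.32) that rested on 7 and 5 UMIs.

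Among untreated classes *Ifngr1* was highest in ductal-like cells, at 153 CPM (87.2 to 248), and endothelial-like cells, at 123 CPM (79.6 to 182), which overlapped each other and macrophage-like cells, at 86.5 CPM (56.5 to 127). Mesenchymal-like cells had 48.2 CPM (13.1 to 124) on 4 UMIs. Endocrine classes came below, within the interval of mesenchymal-like cells in the case of α-like, δ-like and PP-like cells, and β-like cells were at 0.257-fold (0.153 to 0.462) the δ-like and 0.545-fold (0.309 to 1.05) the α-like level, or 0.390-fold and 0.731-fold without hormone UMIs. The untreated interval against α-like cells did not resolve a direction. In both libraries that received IL-1β, β-like cells were above α-like cells, at 1.91-fold (1.33 to 2.84) and 2.84-fold (1.47 to 6.27). With IFN-γ alone the ratio was 1.04, or 1.21 (0.804 to 1.90) without hormone UMIs. At a matched depth, UMIs of both receptor chains were found together in 0.176% of untreated β-like cells, 2.002% under IL-1β, 0.166% under IFN-γ and 1.47% under both.

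*Jak1* (chr4:101152367-101265282, reverse strand), the kinase held by the *Ifngr1* chain and by many other cytokine receptors, was at 96.9 CPM (92.7 to 101) in untreated β-like cells, 195 CPM (186 to 204) under IL-1β, 116 CPM (111 to 122) under IFN-γ and 180.1 CPM (173 to 187) under both. No intervals overlapped except those of the 2 libraries that received IL-1β. The ratios to untreated were 2.01 (1.88 to 2.14), 1.201 (1.12 to 1.28) and 1.86 (1.75 to 1.97). Without hormone UMIs they were 1.49, 0.974 and 1.62, so the value of IL-1β was just under the limit and that of IFN-γ under 1. α-like cells had 73.6, 125, 87.0 and 149 CPM and δ-like cells 98.7, 189, 111 and 178 CPM, in each case with the libraries that received IL-1β above the untreated interval. Endothelial-like cells were at 266 to 358 CPM, with overlapping intervals, and β-like cells at 0.365-fold their level untreated and 0.635-fold under both, or 0.629-fold and 0.957-fold (0.738 to 1.26) without hormone UMIs.

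*Jak2* (chr19:29251828-29313080, forward strand), the kinase held by the *Ifngr2* chain, was at 12.9 CPM (11.4 to 14.6), 47.3 CPM (43.1 to 51.9), 29.3 CPM (26.6 to 32.3) and 60.8 CPM (57.0 to 64.8) in β-like cells. No 2 intervals overlapped, and both cytokines together gave the highest level. The ratios to untreated were 3.67 (3.14 to 4.30), 2.28 (1.94 to 2.67) and 4.72 (4.11 to 5.44), or 2.90, 1.85 and 4.71 relative to the median. α-like cells had the same order of libraries, at 9.21 CPM (4.21 to 17.5), 20.7 CPM (15.3 to 27.4), 18.4 CPM (13.4 to 24.5) and 43.9 CPM (34.2 to 55.6), and only the combined library lay above the untreated interval. δ-like cells were at 24.7 CPM (13.5 to 41.4), 47.4 CPM (34.3 to 63.9), 24.4 CPM (16.9 to 34.2) and 110.2 CPM (88.5 to 136), with the combined library above the others. After thinning, the δ-like ratios to untreated went from 1.92 to 3.84 under IL-1β and from 4.47 to 10.04 under both. Endothelial-like cells were at 19.7, 29.3, 69.4 and 117 CPM, where the combined library, at 117 CPM (75.2 to 175), lay above the untreated one (5.36 to 50.4).

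The level of the receptor before treatment was next set against the response of each class, taken as the ratio of a list of target genes in the treated to the untreated library. For IL-1β the list held 15 genes known to respond to IL-1, led in β-like cells by *Sod2*, *Cebpd* and *Nfkbia*. Its sum went from 259 to 3789.7 CPM in β-like cells, a ratio of 14.7, and the ratio was 20.4 in α-like, 11.8 in δ-like and 19.2 in PP-like cells. Mesenchymal-like cells had the highest ratio, 41.0, followed among non-endocrine classes by ductal-like cells at 6.91 (5.54 to 8.71), endothelial-like at 5.36 (4.66 to 6.20), acinar-like at 4.01 (1.70 to 10.9) and macrophage-like at 3.37 (2.81 to 4.07). The acinar-like value rested on 27 UMIs under IL-1β, and under IFN-γ alone the IL-1 list of this class had a larger ratio, 10.04 (4.59 to 26.02). The sum of mesenchymal-like cells was led by *Ccl2*, *Cxcl1* and *Cxcl2*, and by the median log2 ratio of the list mesenchymal-like cells, at 2.41, came below the endocrine classes, at 5.49 in β-like, 3.95 in δ-like, 3.63 in α-like and 3.60 in PP-like cells. In mesenchymal-like cells, ductal markers, led by *Spp1*, went from 1086 to 6683 CPM and Schwann cell markers from 0 to 105 CPM. The part of other cells in this ratio was not tested. The rank correlation of untreated *Il1r1* with the ratio of the sum was 0.912 over the 9 classes. Macrophage-like cells had no *Il1r1* UMI in either library and still went from 553 to 1865 CPM, led by *Cxcl2*, *Sod2* and *Nfkbia* under IL-1β.

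For IFN-γ the list held 14 genes known to respond to IFN-γ, led under IFN-γ in β-like cells by *Iigp1*, *Gbp2* and *Igtp*. Its sum went from 116 to 5015 CPM in β-like cells, a ratio of 43.1, and the ratio was 27.5 in α-like, 21.8 in δ-like and 53.0 in PP-like cells. Endothelial-like cells reached 93.1 (69.7 to 127), ductal-like 92.3 (55.9 to 165), mesenchymal-like 80.1 (45.8 to 155), acinar-like 64.9 (21.8 to 318) and macrophage-like 11.7 (10.3 to 13.5), the last from an untreated sum of 766 CPM. Except for macrophage-like cells these intervals overlapped, so counting does not resolve the order of the other non-endocrine classes. The rank correlation with untreated *Ifngr1* was 0.383 and with *Ifngr2* 0.467 over 9 classes, and for *Ifngr1* it became -0.333 when the median log2 ratio of the list replaced its sum. Classes share their libraries, differ in depth and are small outside the endocrine cells, so these correlations are descriptions without a test.

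*Ifngr2* was higher in the combined than in the IFN-γ library in all 4 endocrine classes, while the IFN-γ list was not higher in all of them. Its ratio to untreated was 49.1 under both cytokines against 43.1 under IFN-γ in β-like cells, 34.2 against 21.8 in δ-like cells, 24.0 against 27.5 in α-like cells and 62.5 against 53.0 in PP-like cells. By the median log2 ratio of the list the order turned in β-like cells, at 5.79 under both and 5.96 under IFN-γ. IL-1β alone gave 5.67 in β-like, 1.42 in α-like, 1.93 in δ-like and 5.07 in PP-like cells, but in α-like cells the median log2 ratio of the list was -0.11, the opposite direction. The sum of the IL-1 list gave higher ratios in the combined than in the IL-1β library, at 18.0 against 14.7 in β-like, 28.7 against 20.4 in α-like, 19.6 against 11.8 in δ-like and 32.1 against 19.2 in PP-like cells. By the median log2 ratio of the list the direction was the opposite in β-like cells, at 4.24 against 5.49, and the same in α-like cells, at 5.04 against 3.63. Receptor level and list were read at the same time, after 6 h.

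**Figure D4:**
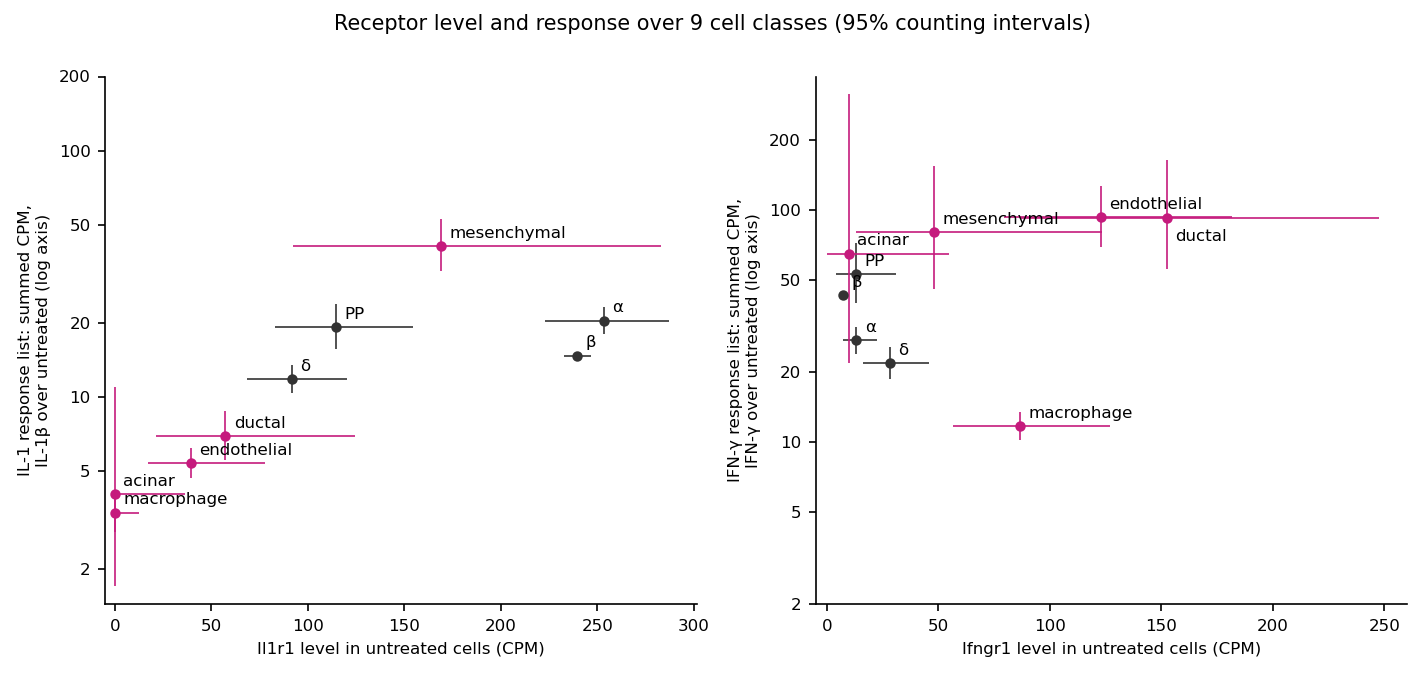
Untreated level of *Il1r1* (left) and *Ifngr1* (right) in CPM against the ratio of the IL-1 or IFN-γ response list to the untreated library, for the 9 cell classes, with 1 point per class. By this sum mesenchymal-like cells have the largest IL-1 ratio, 41.0, though not by the median log2 ratio of the list (2.41 against 5.49 in β-like cells). The IFN-γ ratios run from 11.7 to 93.1, with a rank correlation of 0.383 with *Ifngr1*. That correlation changed sign when the median log2 ratio of the list replaced its sum.

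Within β-like cells of a treated library, the 10 genes were compared between cells with and without a UMI of *Nos2*, the gene for inducible nitric oxide synthase. With both cytokines, 890 cells had a *Nos2* UMI and 365 did not. *Il1r1* was lower in cells with *Nos2*, at 82.4 CPM (77.3 to 87.8) against 119.6 CPM (109 to 131), while *Myd88* was higher, at 46.5 CPM (42.7 to 50.6) against 28.3 CPM (23.3 to 34.2). The share of cells with an *Il1r1* UMI did not differ beyond counting error, at 57.2% (53.9 to 60.5) with *Nos2* and 57.0% (51.7 to 62.1) without. *Irak2* was at 12.2 CPM against 4.42 CPM, *Ifngr2* at 54.8 CPM against 39.8 CPM, *Jak1* at 189 CPM against 153 CPM and *Jak2* at 66.6 CPM against 43.4 CPM. *Ifngr1* did not differ beyond counting error, at 15.7 CPM and 17.9 CPM. With IL-1β alone, in 325 cells with *Nos2* and 798 without, *Il1r1* was at 237 CPM against 262 CPM and *Ifngr2* at 63.1 CPM against 55.8 CPM, with overlapping intervals for either gene. *Myd88*, at 28.8 CPM (23.1 to 35.4) against 20.2 CPM (16.9 to 24.0), *Irak2*, at 4.85 CPM against 5.09 CPM, and *Jak2*, at 53.1 CPM (45.2 to 61.8) against 44.6 CPM (39.6 to 50.03), also overlapped, while *Jak1*, at 219.7 CPM (203 to 237) against 183 CPM (173 to 194), did not overlap. Cells of a library are not replicates, and the cells with *Nos2* were deeper, at a median of 12839.5 against 10565 UMIs under both cytokines.

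The response was also set against *Il1r1* within a class. Among β-like cells under IL-1β, the IL-1 list summed to 3819 CPM in 837 cells with *Il1r1* and 3681 CPM in 286 without, and under both cytokines to 4594 CPM in 717 and 4741 CPM in 538, so the order of the sides differed between the libraries. β-like cells with at least 10 *Hspa1a* UMIs per 10000, *Hspa1a* being a heat shock gene induced by stress, numbered 98 under IL-1β, 78 under IFN-γ and 78 under both. In these *Il1r1* was at 147 CPM against 262 CPM in the rest under IL-1β, at 125 CPM against 229 CPM under IFN-γ and at 69.6 CPM against 93.0 CPM under both, where the intervals overlapped. *Ifngr2* was at 26.1 CPM against 60.5 CPM under IL-1β and at 29.7 CPM against 52.3 CPM under both, but at 8.51 CPM (3.12 to 18.5) against 4.91 CPM (3.79 to 6.26) under IFN-γ, where the intervals overlapped. Under IL-1β *Jak1* was at 123 CPM against 200 CPM. *Myd88*, at 12.3 CPM against 23.8 CPM, and *Ifngr1*, at 24.5 CPM against 26.8 CPM, overlapped there. The IL-1 list summed to 1814 CPM against 3934 CPM under IL-1β and to 3102.5 CPM against 4748 CPM under both. With IFN-γ alone it was higher in the *Hspa1a*-rich cells, at 718 CPM against 372 CPM.

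**Figure D5:**
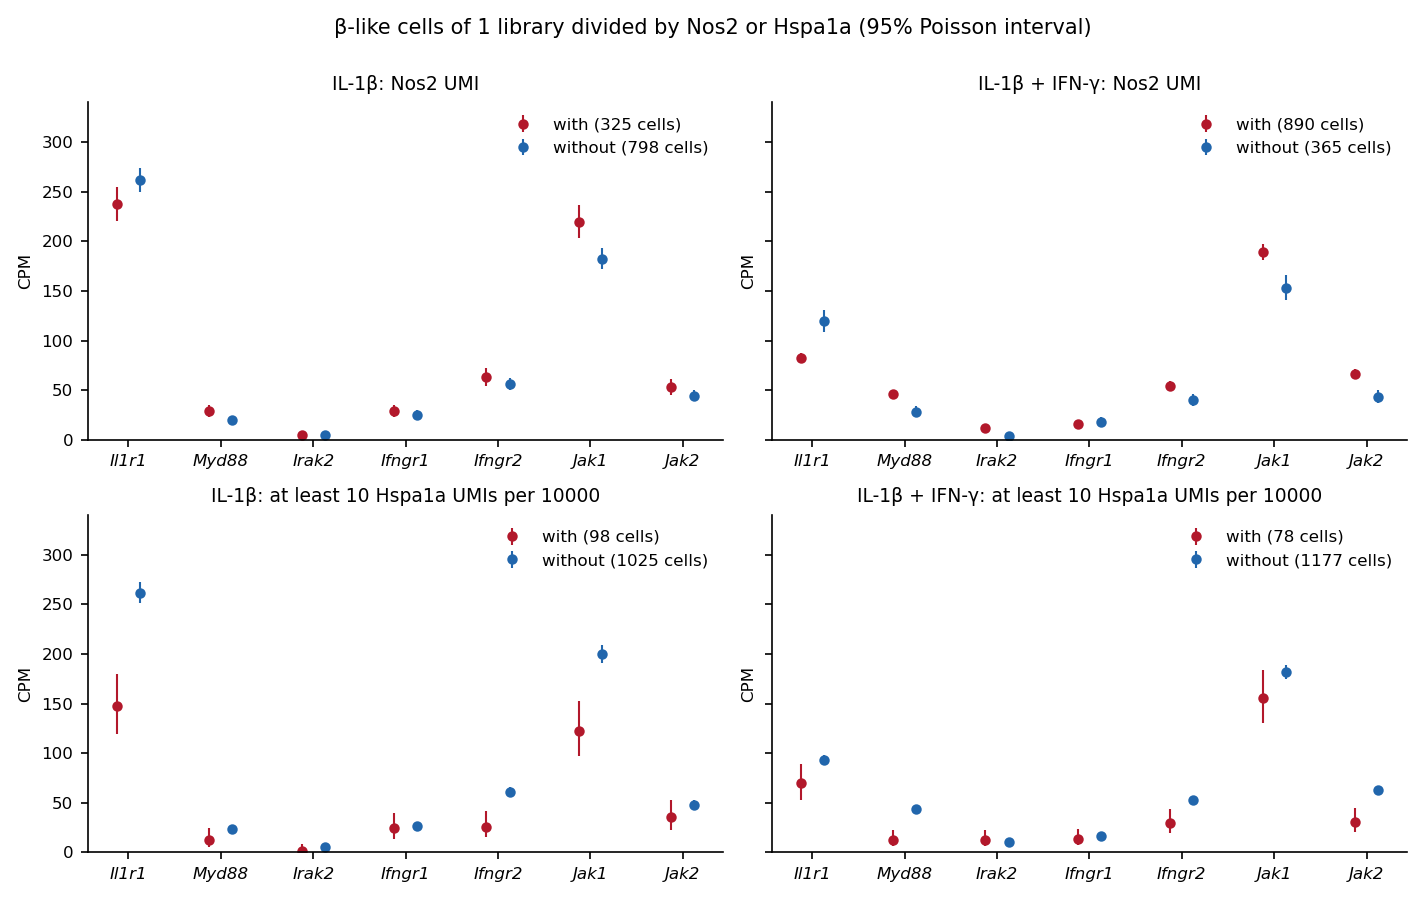
Level (CPM) of *Il1r1*, *Myd88*, *Irak2*, *Ifngr1*, *Ifngr2*, *Jak1* and *Jak2* in β-like cells of the IL-1β and combined libraries, with bars for 95% counting intervals. Cells are divided by a *Nos2* UMI, and by at least 10 *Hspa1a* UMIs per 10000. *Ifngr2* is at 26.1 CPM in the *Hspa1a*-rich cells against 60.5 CPM in the rest under IL-1β, and *Il1r1* at 82.4 CPM with *Nos2* against 119.6 CPM without it in the combined library.

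Of 37 other genes of these pathways, 30 could be counted in β-like cells under IL-1β, 29 under IFN-γ and 32 under both. With IL-1β 23 were higher and 2 lower, under IFN-γ 14 and 1, and under both 21 and 2. With hormone UMIs left out of the totals, 15 were higher under IL-1β, 7 under IFN-γ and 18 under both, beside 16.1%, 7.38% and 15% of all genes, while the numbers lower were the same. α-like cells gave 9 higher and 2 lower of 22 under IL-1β, 5 and 0 of 23 under IFN-γ and 9 and 2 of 19 under both. δ-like cells gave 9 and 0 of 17, 4 and 3 of 18, and 12 and 1 of 19. For the counts over all UMIs the background is the share of all genes given above for each comparison.

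*Irak3*, which restrains signaling after MyD88, was at 0.403 CPM in untreated β-like cells, 8.15 CPM under IL-1β, 0.502 CPM under IFN-γ and 5.50 CPM under both. *Socs1*, an inhibitor of JAK kinases, was at 0.705, 8.67, 36.9 and 99.5 CPM, highest under both cytokines. *Ptpn2*, a phosphatase that acts on JAK kinases, was at 14.7, 96.1, 27.8 and 91.3 CPM, and *Socs3*, a related inhibitor of cytokine receptors, at 13.1, 55.7, 20.7 and 38.3 CPM, both with the libraries that received IL-1β on top. *Sigirr*, a receptor that restrains signaling of the IL-1 family, had ratios in β-like cells of 1.01 (0.755 to 1.33) under IL-1β, 1.65 (1.33 to 2.05) under IFN-γ and 1.42 (1.14 to 1.77) under both, and *Pias1*, an inhibitor of cytokine signaling, had 1.47 (1.27 to 1.69), 1.45 (1.28 to 1.66) and 1.03 (0.902 to 1.19). With hormone UMIs left out, or relative to the median ratio, *Sigirr* was no longer counted as higher under IFN-γ.

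Other cytokine receptors shared the pattern in part. *Tnfrsf1a*, a receptor of tumor necrosis factor, was at 39.2, 109, 57.6 and 148 CPM in β-like cells, and *Il10rb*, a shared chain of the interleukin-10 receptor family, at 5.69, 22.8, 5.74 and 12.6 CPM. *Il18r1* was at 0.201, 2.72, 3.30 and 4.40 CPM, above the untreated level in all treated libraries. *Il6ra*, the interleukin-6 receptor, went the other way, at 73.1, 48.4, 63.0 and 36.4 CPM, as did *Tab1*, which acts between the IRAK complex and NF-κB, at 9.26, 5.64, 6.17 and 3.95 CPM. Among the ligands, *Il1b* in macrophage-like cells was at 16.6, 994, 26.9 and 142 CPM, and *Il1a* at 9.99, 167, 26.9 and 18.6 CPM, both highest under IL-1β alone. *Ifng* had 0 UMIs in β-like, α-like, δ-like and macrophage-like cells of all 4 libraries, and the T cell markers *Cd3d*, *Cd3e*, *Cd3g* and *Trac* were at 0 in β-like and macrophage-like cells. *Trac* was detected in α-like cells of 3 libraries, at 1.02 CPM untreated, 0.845 CPM under IL-1β and 1.596 CPM under IFN-γ, in δ-like cells at 1.10 CPM under IL-1β and 0.719 CPM under IFN-γ, and in mesenchymal-like cells at 11.6 CPM under IFN-γ.

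The remaining pathway genes past 1.5-fold in at least 2 treated libraries of β-like cells were all higher. They were the cytokine genes *Il1b* and *Il18*, the signaling genes *Irak4*, *Traf6*, *Tollip*, *Peli1*, *Tab2*, *Tab3*, *Chuk*, *Ikbkb* and *Jak3*, and the receptor genes *Ifnar2* and *Il6st*. With hormone UMIs left out of the totals, only *Il1b*, *Traf6*, *Chuk*, *Ifnar2* and *Il6st* of these were still past it in at least 2 libraries. *Il6st*, the shared signaling chain of the interleukin-6 receptor family, had ratios of 3.23 under IL-1β, 1.09 under IFN-γ and 2.56 under both. *Ifnar2*, a chain of the type I interferon receptor, had 2.10, 2.16 and 2.13 in that order.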

How the data were processed

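The authors made the libraries with the 10x Genomics Chromium system (kit version 3 in the paper, 2 in the labels) and deposited raw UMI counts per gene and barcode, without normalization. The submitters' processing notes name Cell Ranger and mm10, and the matrix headers give software version 3.0.0. Values were checked to be whole numbers. All 4 samples were used, 1 library per condition, and 0 per-sample columns were left unused.

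The matrices were loaded in Python 3.11.15 (pandas 2.3.3, scipy 1.17.1, numpy 2.4.6), clustered as a check with scanpy 1.11.5 and igraph 0.11.9 (2000 variable genes per library, 30 components, 20 neighbors, resolution 1.6), and drawn with matplotlib 3.10.9. The cell limits (200 to 4000 genes, at most 12% mitochondrial UMIs) are those worded in the study, and fewer cells passed them here than the study states to have kept. The median depth of kept cells was 7462.5 to 15454 UMIs.

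β-like cells had at least 5% insulin UMIs (*Ins1* and *Ins2*) and under 1% of each of *Gcg*, *Sst* and *Ppy*. The limits were at least 2% *Gcg* for α-like, 1% *Sst* for δ-like and 2% *Ppy* for PP-like cells, with under 5% insulin. Non-endocrine classes needed under 5% hormone UMIs, at least 3 detected markers of 1 list and more than of any other. These limits were set after the hormone shares were seen. Cells that met none, 306 with mixed hormones and 243 unassigned, were left out. Scrublet (expected rate 0.05) called 0.723% to 1.16% of cells per library as doublets, which were kept except in 1 alternative.

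Levels carry exact Poisson intervals, shares exact binomial (Clopper-Pearson) and ratios exact conditional intervals, all at 95%, and no ratio was formed where both counts were at or under the floor of 3 UMIs. Thinning drew 4000 UMIs from each cell and left out shallower cells. With 1 library per condition no test between conditions could be made. The calculation was tested on simulated data. The genes, lists and motifs were chosen with earlier results of these data known. Named were all 10 genes, those of the pathway list past 1.5-fold in at least 2 treated libraries of an endocrine class, and the 3 most abundant genes of each response list. A gene of the pathway list that met this rule is not reported here by name, though it is in the counts. *Il1a*, *Ifng*, *Sigirr*, *Pias1*, *Trac*, *Nos2* and *Hspa1a* were chosen after values were seen. Positions are those of GENCODE M21 (GRCm38), which matched 47 of 47 genes of the lists. The matching promoters were from RefSeq.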

Additional observations from a re-analysis of the deposited data

How the results depend on the processing

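With 1 library per condition, no replicate could be left out. No paired analysis was possible because each condition has a single library. Alternatives changed 1 choice at a time, and those of the fold, the minimum, thinning and cell limits were planned. Of 420 recomputed ratios (60 distinct), 398 moved by less than their counting interval and 22 moved beyond it. Counts of genes past 1.5-fold that moved by over 1.5 times are given next, and smaller changes, of 1 or 2 genes, occurred under other settings. In β-like cells under both cytokines, thinning lost *Il1rap* and *Il1rn*, and in δ-like cells the stricter hormone share lost *Il1r1*. With at least 100 UMIs, the counts were 5 in β-like, 3 in α-like and 1 in δ-like cells with IL-1β, 0 in α-like cells with IFN-γ and 2 in α-like cells with both. After thinning to 4000 UMIs they were 3 in β-like and 0 in α-like cells with IFN-γ, 3 in α-like cells with both and 2 in δ-like cells with IL-1β. A fold of 2 gave 0 in α-like cells with IFN-γ and 2 in δ-like cells with IL-1β. A stricter hormone share gave 1 in δ-like cells with IL-1β and 1 with IFN-γ. With no upper gene limit, IFN-γ gave 2 in α-like and 2 in δ-like cells. For the settings of UMI minimum, thinning, fold, hormone share and gene limit, the share of all genes past the limit is not given. A gene under the UMI minimum leaves the count whatever its ratio, so a lower count does not by itself mean smaller ratios. Leaving hormone genes out of the totals took the β-like over α-like ratio of untreated *Il1r1* to 1.27 and, as an alternative added after seeing the data, the β-like over δ-like ratio from 2.62 to 3.97. The rank correlation of *Il1r1* with the IL-1 response was 0.745 with no upper gene limit, 0.717 with graph clusters and 0.778 without hormone genes. That of *Ifngr1* with the IFN-γ response was 0.20 with no upper gene limit, 0.0167 with graph clusters and -0.333, a reversal, with the median log2 ratio of the list. Of the other pathway genes in β-like cells, 23 under IL-1β and 14 under IFN-γ were higher over all UMIs, 15 and 7 with hormone UMIs left out of the totals and 16 and 7 relative to the median ratio, both scalings chosen for this list after seeing the data. The cause of these changes was not tested. Few UMIs limit *Il1rap*, *Il1r2* and *Il1rn* in all endocrine classes and every gene in classes of under 50 cells.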
